A study of Homo sapiens with 4 samples.

Results

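Molecular chaperones of the heat shock families, their DNAJ partners and the CCT chaperonin were followed in CAL27 cells, an established line of human oral squamous cell carcinoma. The set holds 64 genes of 29437 in the deposited tables. They were chosen by name (HSP90A, HSPA, HSPB, HSPH1, HSPD1, HSPE1, DNAJA, DNAJB, DNAJC, the CCT subunits with TCP1, and HSF1) and by their measured level, a mean of at least 1 FPKM over the 4 libraries. FPKM is reads scaled by gene length and by the library's total. The gene length is the total of annotated exons, which can far exceed the annotated mRNA (14981 against 1609 nt for DNAJB6). FPKM therefore ranks genes only roughly. The endoplasmic reticulum genes HSPA5, DNAJB9, DNAJB11 and DNAJC3 were left out by name. Another 12 genes with matching names lay under the minimum. DNAJC27 was just inside it, at 1.60 and 1.35 FPKM in the controls and 1.08 and 0.812 FPKM in the overexpression libraries. HSPA6, a heat-inducible HSP70, was just outside it, at 0.432 and 0.425 FPKM against 0.797 and 1.15 FPKM. Because the rule used the level over all libraries, the levels themselves are given as a description.

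The study compared CAL27 cells labelled as negative control with CAL27 cells in which lentivirus had been used to overexpress CCL20, a chemokine that signals through the receptor CCR6. Cells were lysed after 48 hours, and 1.5 µg of RNA per library was taken for sequencing of polyadenylated RNA. Each group has 2 libraries, named here control 1 and 2 and overexpression 1 and 2. The labels do not say what virus, if any, the controls received, nor whether the line is 1 clone. Nothing in them says that the libraries of a group came from separate cultures, so p-values measure only the spread between these libraries, which may be technical.

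Heat shock proteins bind unfolded stretches of other proteins and release them in cycles driven by ATP. HSP70 does most of this work with DNAJ proteins, which deliver clients through their J domain, and with exchange factors, which release ADP. HSP90 takes over clients such as kinases and steroid receptors, the CCT ring encloses actin and tubulin, and the factor HSF1 drives many of these genes when proteins unfold. The label speaks of cytosolic chaperones, but the name rule also takes in HSPD1, HSPE1 and HSPA9, the chaperones of the mitochondrial matrix, and DNAJ proteins of mitochondria and the endoplasmic reticulum such as DNAJC19, DNAJC15, DNAJC10 and DNAJC1.

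The libraries held from 13681862 to 17860695 counts, of which the members took 1.71% and 1.72% of the counts in the controls and 1.95% and 1.67% in the overexpression libraries. CCL20 itself stood at 8.62 and 7.10 FPKM in the controls and at 15.2 and 11.3 FPKM in the overexpression libraries, a log2 difference of 0.95 ± 0.21 (SE; edgeR adjusted p = 0.0143). With libraries scaled to equal sums of TPM it was at 0.46, and with a correction for mRNA length at 0.06, and neither passed (adjusted p = 0.181 and 0.916). Of 8 squamous epithelial markers, 7 had a mean of at least 1 FPKM, with KRT14 the one below it, and their sum lay between 874 and 1190 FPKM. Single markers went both ways: TP63 was at 35.2 and 31.9 FPKM in the controls against 23.0 and 14.3, and SFN at 213 and 253 against 301 and 422; their part in the results was not tested. Among markers of other cell types, the fibroblast list summed to 4.55 and 5.47 FPKM against 2.73 and 3.41, mostly from COL1A1, the 3 leukocyte markers listed summed to at most 0.263 FPKM, PECAM1 of endothelium was at or near 0, and CDH5 lay between 5.03 and 8.66 FPKM. In bulk RNA such as this, fewer cells of a kind and less RNA per cell cannot be told apart.

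Of the 64 members, 15 were called higher and 8 lower in the overexpression libraries, and 41 did not pass the threshold, an adjusted p under 0.05 by edgeR over the 12168 genes with a mean of at least 1 FPKM. Over all tested genes 16.5% were called higher and 15.7% lower, and whether the members differ from these shares was not tested. The median log2 fold change of the members was 0.16, against 0.00 over all tested genes. Members called higher came from the small heat shock proteins (HSPB1, HSPB11), the mitochondrial chaperones (HSPE1), HSP70 (HSPA1A), the CCT ring (CCT3, CCT7, CCT8) and the DNAJ family (DNAJA1, DNAJC1, DNAJC8, DNAJC12, DNAJC15, DNAJC17, DNAJC19, DNAJC30). Members called lower were DNAJB14, DNAJC11, DNAJC13, DNAJC14, DNAJC16, DNAJC24, HSPA4L and HSPA12A.

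**Figure D1:**
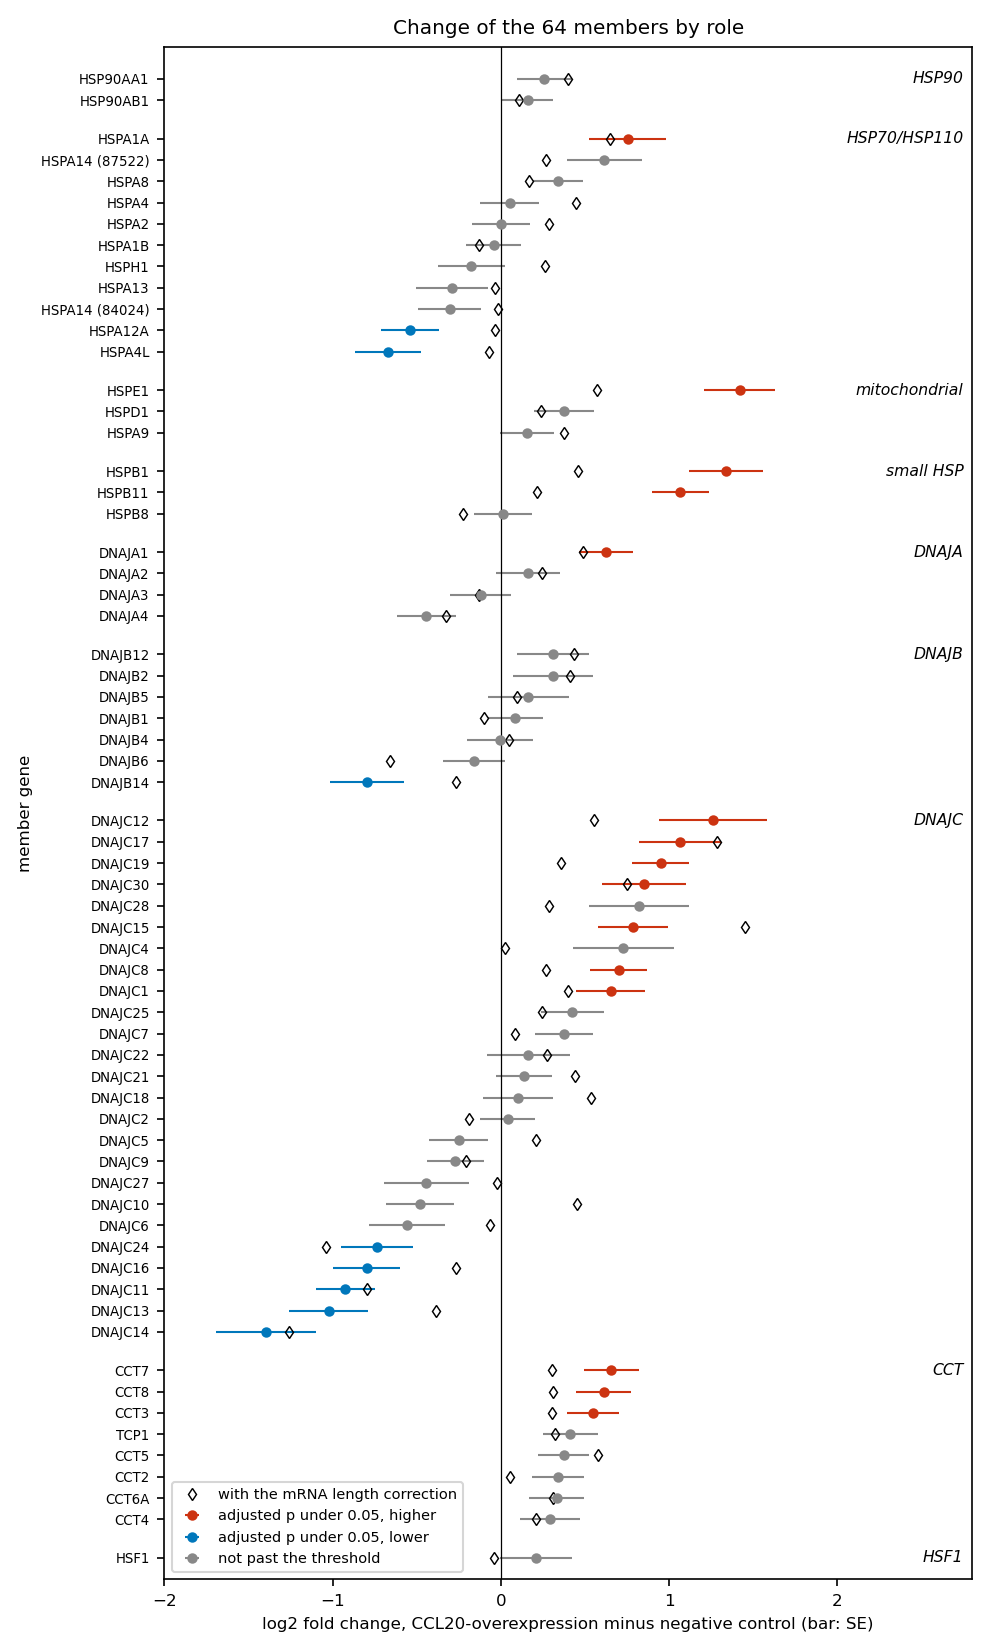
Log2 fold change of each of the 64 members (horizontal axis, CCL20-overexpression minus negative control, 2 libraries each; dots are the edgeR estimates, bars their SE, diamonds the estimate with the mRNA length correction), arranged by role. HSPE1 and HSPB1 lie farthest to the right at 1.42 and 1.34, DNAJC14 farthest to the left at -1.39, and the 8 CCT subunits all lie between 0.29 and 0.66. The digits beside HSPA14 are the ends of its 2 gene identifiers.

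These counts move with the scale on which the libraries are set. edgeR's TMM factors place the middle of all genes at 0.00, whereas on the TPM scale, which holds the sum of length-scaled reads equal, all genes had a median of -0.50 and the members one of -0.33. On that scale 2 members were called higher (HSPE1 and HSPB1) and 16 lower, beside 3.96% and 37.7% of all tested genes. Leaving out 1 library moved the counts as well. They were 1 higher and 0 lower without control 1 (7 and 5 at an unadjusted edgeR p under 0.05), beside 2.61% and 2.73% of all tested genes. Without control 2 they were 3 and 1, beside 3.74% and 4.39%. Without overexpression 1 they were 22 and 14, beside 30.8% and 31.5%, and without overexpression 2 they were 29 and 12, beside 26.2% and 26.6%. The overexpression pair spread more widely than the control pair, with a median absolute log2 difference between replicates of 0.27 against 0.11 over the members and of 0.33 against 0.13 over all tested genes.

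The change of a member went with the length of its mRNA. The 11 members with an mRNA under 2000 nt, by annotation, had a median log2 fold change of 0.82, and edgeR called 7 of them higher and 0 lower (10 and 0 at an unadjusted p under 0.05; DESeq2 also gave 7 and 0). The 11 with an mRNA over 5000 nt had a median of -0.54, with DNAJC15 called higher and 5 called lower. Of all tested genes, edgeR called 16.5% higher and 15.7% lower. The shares among genes of like length were not counted. Over the 64 members the Spearman correlation between log2 fold change and mRNA length was -0.67, and over the 10571 coding genes it was -0.73, so the trend is shared by genes at large. When this trend was taken out with a smooth curve in mRNA length, 3 members were called higher (DNAJC17, DNAJC15 and CCT5) and 3 lower (DNAJC14, DNAJC11 and DNAJC24), where 3.63% and 3.19% of the coding genes were called. Of these, 5 were also called without the correction. With a gene's length taken over all its coding transcripts instead of the principal ones, a choice made after seeing the data, 10 were called higher and 3 lower, beside 11% and 10.5% of the coding genes, and 9 and 3 of these were called without correction. A length over all coding transcripts can be far under the principal one (584 against 3776 nt for HSPA9). How much of the trend remained with it was not measured, so passing there does not show a change beyond the trend. With the correction on principal transcripts the members' median was 0.24, against 0.03 over the coding genes. What makes change go with length was not tested.

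**Figure D2:**
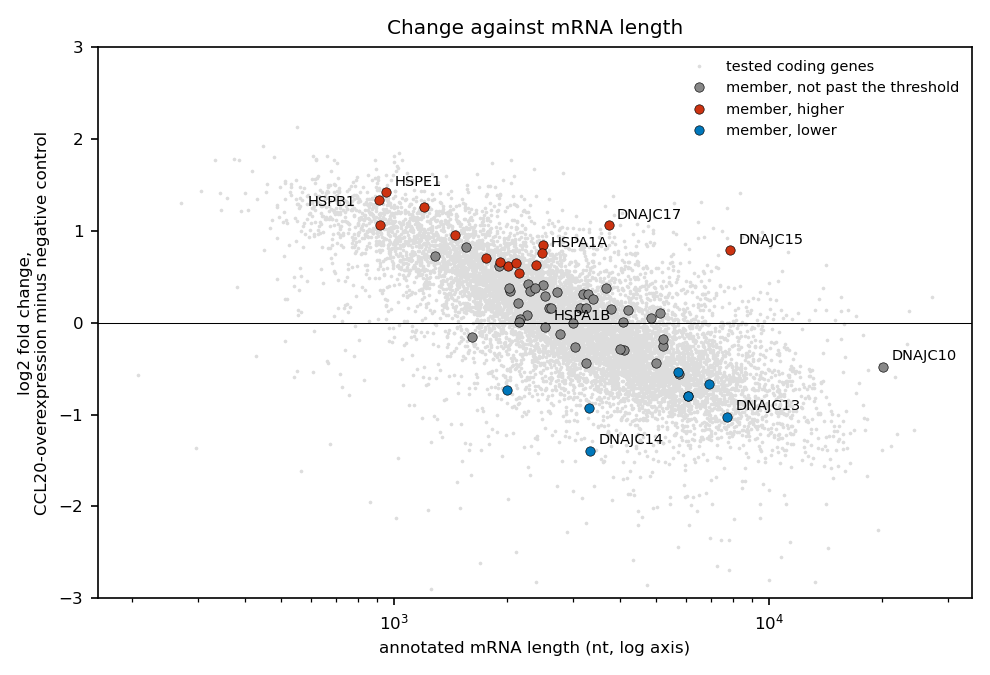
Log2 fold change (vertical axis, CCL20-overexpression minus negative control) against annotated mRNA length (horizontal log axis, nt) for the members (large dots, coloured by call) and the tested coding genes (small grey dots; 4 lie outside the plotted range of 3 either way). HSPB1 and HSPE1 sit at the short, raised end, DNAJC13 at the long, lowered end, while DNAJC17 and DNAJC15 lie in the upper part and DNAJC14 in the lower part of the cloud at their length.

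HSP90, the most abundant chaperone of the set, did not pass the test for either gene. HSP90AB1, the constitutive form, was at 945 and 975 FPKM in the controls and at 1005 and 861 FPKM in the overexpression libraries, so the groups overlapped on this scale. Its log2 difference was 0.16 ± 0.15 (SE; edgeR adjusted p = 0.430). HSP90AA1, the stress-inducible form, was at 431 and 446 FPKM against 516 and 398 FPKM, a difference of 0.26 ± 0.16 (adjusted p = 0.247), with overexpression 1 above and overexpression 2 below both controls. The 2 forms kept a like ratio, with 2.19 FPKM of HSP90AB1 per FPKM of HSP90AA1 in each control library and 1.95 and 2.16 in the overexpression libraries. With TMM scaling both overexpression libraries lay above both controls for each form, whereas on the TPM scale both differences were negative, -0.34 and -0.23, and neither passed the threshold there.

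In the HSP70 and HSP110 group of 11 genes, 1 was called higher and 2 lower, beside 16.5% and 15.7% of all tested genes. HSPA8, the constitutive HSP70, which folds new proteins and uncoats clathrin vesicles, led the group at 422 and 424 FPKM in the controls and 468 and 460 FPKM in the overexpression libraries. Both overexpression libraries lay above both controls, but the log2 difference of 0.34 ± 0.15 missed the threshold (edgeR adjusted p = 0.112). HSPA4, an exchange factor of the HSP110 branch, was at 56.6 and 57.9 FPKM against 59.6 and 43.9 FPKM (0.05 ± 0.17, adjusted p = 0.835). HSPH1, the heat-inducible HSP110, was at 48.6 and 48.9 FPKM against 45.8 and 29.6 FPKM. Its lower mean in the overexpression libraries came mostly from overexpression 2, and the difference of -0.18 ± 0.20 did not pass (adjusted p = 0.514). The calls lower were HSPA4L, a relative of HSPA4 (-0.67, adjusted p = 0.0339), and HSPA12A (-0.54, adjusted p = 0.0432), both with mRNAs over 5000 nt and corrected values of -0.07 and -0.04 that did not pass. HSPA14, a ribosome-bound HSP70, has 2 identifiers whose exons overlap, with differences of 0.62 and -0.30 that did not pass (adjusted p = 0.0674 and 0.237), and its counts are uncertain.

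HSPA1A and HSPA1B, the inducible HSP70 pair known as a readout of heat shock, differed in their calls, though the difference between them was not tested. HSPA1A (chr6:31815464-31817946, plus strand, GRCh38) was at 36.4 and 37.5 FPKM in the controls and at 43.6 and 63.6 FPKM in the overexpression libraries. Both overexpression libraries lay above the controls, with overexpression 2 the highest, and the log2 difference was 0.75 ± 0.23 (1.69-fold, edgeR adjusted p = 0.0369). HSPA1B (chr6:31827735-31830255, plus strand) was at 33.5 and 36.8 FPKM against 31.0 and 28.3 FPKM. Here both overexpression libraries lay below the controls on the FPKM scale, and the log2 difference was -0.04 ± 0.16 (adjusted p = 0.854). The level of HSPA1A per level of HSPA1B was therefore 1.08 and 1.02 in the controls and 1.41 and 2.25 in the overexpression libraries, a ratio within each library that no scaling of libraries touches. The pair is close to identical, with 89.2% of 2605 aligned transcript positions the same, so reads may be shared between them and the split between the pair is uncertain. With the length correction HSPA1A was at 0.65 (adjusted p = 0.108), and with lengths over all coding transcripts at 0.80 (adjusted p = 0.0385). HSPA1B also shares 36.5% of its exonic bases with AL671762.1 on its own strand, a gene not analysed here.

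Promoter bases of these genes are shown because HSPA1A and HSPA1B, called differently, are nearly alike there, and beside them stand HSPB1, which rose, and DNAJB6, which holds the full element and did not pass the test. They are RefSeq promoter sequences of GRCh38.p14, 5′ to 3′ on the gene's strand, limited to bases that lie in no exon of GENCODE 29. Distances are counted from the RefSeq start, which lies 79, 3 and 129 bases inside the GENCODE gene for HSPA1A, HSPA1B and HSPB1, so the printed stretches end that far before it. For DNAJB6 the stretch ends 38 bases before the RefSeq start and lies inside the gene as GENCODE draws it, which begins at 157335381. Capitals mark GAANNTTC or TTCNNGAA, the inverted pair of units in a heat shock element, or the full element of 3 units, which is GAANNTTC followed by NNGAA or, on the other strand, TTCNNGAA followed by NNTTC (N is any base).
HSPA1A (chr6:31815293-31815463, plus strand): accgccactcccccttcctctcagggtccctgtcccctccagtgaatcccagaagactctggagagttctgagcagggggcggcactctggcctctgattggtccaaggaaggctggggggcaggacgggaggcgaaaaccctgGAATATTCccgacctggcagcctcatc
HSPA1B (chr6:31827488-31827734, plus strand): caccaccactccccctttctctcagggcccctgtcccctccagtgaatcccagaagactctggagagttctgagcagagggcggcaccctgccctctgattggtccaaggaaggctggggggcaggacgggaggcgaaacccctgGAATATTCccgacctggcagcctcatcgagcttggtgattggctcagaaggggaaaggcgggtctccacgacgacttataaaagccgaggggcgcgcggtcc
HSPB1 (chr7:76302423-76302543, plus strand): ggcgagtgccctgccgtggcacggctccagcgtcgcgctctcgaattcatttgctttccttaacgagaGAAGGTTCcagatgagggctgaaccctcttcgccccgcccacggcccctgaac
DNAJB6 (chr7:157336774-157336965, plus strand): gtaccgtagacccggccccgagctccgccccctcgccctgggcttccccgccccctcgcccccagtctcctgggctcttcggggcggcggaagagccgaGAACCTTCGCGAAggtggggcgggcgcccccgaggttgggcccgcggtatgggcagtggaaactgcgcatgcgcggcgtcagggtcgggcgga
HSPA1A and HSPA1B both hold GAATATTC, 106 and 105 bases before their RefSeq starts, and over the 250 bases before that start 93.6% of the 251 aligned positions were the same. HSPB1 holds GAAGGTTC 182 bases before its RefSeq start, and DNAJB6 the full element GAACCTTCGCGAA 131 bases before its own.

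Windows from 250 bases before to 50 bases after the start were searched on both strands for 56 of the 63 member names, those with a RefSeq entry. The full element stood in 6 of them (DNAJA1, HSPD1, HSPA8, HSP90AA1, HSP90AB1 and DNAJB6), 10.7%. It stood in 0.608% of 27305 genes with such a window, and in 0.458% of the 8725 tested genes among them. The pair, which every full element also contains, stood in 20 of the 56, 35.7%, against 16.2% of genes and 13.2% of the tested ones. Of the 6 members with the full element, 1 was called higher (DNAJA1) and 0 lower, beside 16.5% and 15.7% of all tested genes. Whether the element goes with a call was not tested. The pair was found in 4 of 13 members called higher, in 1 of 7 called lower and in 15 of 36 not called. These are matches of letters and do not show binding.

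The small heat shock proteins, which hold unfolding proteins without ATP, gave some of the largest rises. HSPB1, also known as HSP27 (chr7:76302544-76304295, plus strand), was at 73.7 and 85.4 FPKM in the controls and at 146 and 201 FPKM in the overexpression libraries, well apart. The log2 difference was 1.34 ± 0.22 (2.53-fold, edgeR adjusted p = 0.00559), and 0.82 on the TPM scale (adjusted p = 0.0160). HSPB11, which despite its name is a part of the intraflagellar transport machinery, was at 13.2 and 11.8 FPKM against 24.7 and 20.9 FPKM, again without overlap. It rose by 1.07 ± 0.17 (2.09-fold, adjusted p = 0.00528). HSPB8, the partner of the exchange factor BAG3, was at 14.3 and 13.3 FPKM against 13.0 and 11.2 FPKM, a log2 difference of 0.01 ± 0.17 (adjusted p = 0.965). The mRNAs of HSPB1 and HSPB11 are annotated at 909 and 915 nt and that of HSPB8 at 2152 nt. With the length correction HSPB1 was at 0.46 (adjusted p = 0.162) and HSPB11 at 0.21 (adjusted p = 0.527). With lengths taken over all coding transcripts they were at 1.03 and 0.75 and both passed (adjusted p = 0.0122 and 0.0208).

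The mitochondrial chaperonin HSP60 and its lid HSP10 are made from neighbouring genes that share a promoter region on chromosome 2. HSPE1, which encodes HSP10 (chr2:197499994-197503457, plus strand), had the largest estimated rise of any member. It was at 7.73 and 10.5 FPKM in the controls and at 21.1 and 21.3 FPKM in the overexpression libraries, a log2 difference of 1.42 ± 0.21 (2.68-fold, edgeR adjusted p = 0.00477), and of 0.92 on the TPM scale (adjusted p = 0.0160). HSPD1, which encodes HSP60, was far higher in level and did not pass, at 263 and 248 FPKM against 339 and 238 FPKM (0.37 ± 0.18, adjusted p = 0.140). Overexpression 1 lay above and overexpression 2 below both controls for HSPD1. The level of HSPE1 per level of HSPD1 was 0.0294 and 0.0424 in the controls and 0.0624 and 0.0893 in the overexpression libraries. HSPE1 has an mRNA of 950 nt and HSPD1 one of 2377 nt, and with the length correction the differences were 0.57 (adjusted p = 0.127) and 0.24 (adjusted p = 0.471). With lengths over all coding transcripts HSPE1 was at 1.16 and passed (adjusted p = 0.00935). HSPE1 shares 23.9% of its exonic bases with HSPE1-MOB4 and with HSPD1 on the other strand, so its counts are uncertain. HSPA9, the mitochondrial HSP70, was at 64.1 and 59.5 FPKM against 66.5 and 53.2 FPKM and did not pass (0.15 ± 0.16, adjusted p = 0.478).

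**Figure D3:**
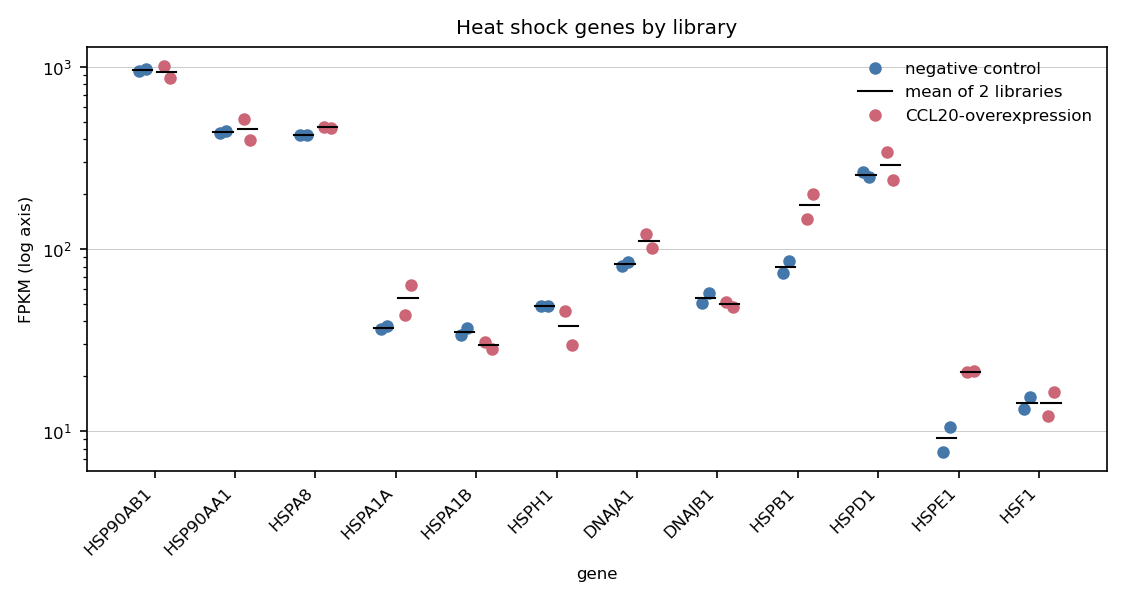
FPKM (vertical log axis) of 12 heat shock genes in each library; dots are libraries, 2 per group, and short lines are group means. HSPB1 and HSPE1 separate clearly, HSPA1A and HSPA1B move apart from near-equal levels, and HSP90AB1, HSP90AA1, HSPD1 and HSF1 overlap between the groups.

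HSF1 stood at 13.3 and 15.3 FPKM in the controls and at 12.0 and 16.5 FPKM in the overexpression libraries. The groups overlapped, with the overexpression libraries on either side of both controls, and the log2 difference was 0.21 ± 0.22 (edgeR adjusted p = 0.473). Of 13 tested genes in a list of other heat shock factors and targets, 4 were called higher and 0 lower by edgeR and by DESeq2 (6 and 0 at an unadjusted p under 0.05 by either), with a median of 0.38. Of all tested genes, edgeR called 16.5% higher and 15.7% lower. HSBP1, which binds HSF1 and restrains it, was at 14.7 and 12.5 FPKM against 21.4 and 20.8 FPKM. It rose by 0.84 ± 0.17 (adjusted p = 0.00916) and also passed with the length correction, at 1.25 (adjusted p = 0.00939), with an annotated mRNA of 4902 nt. Its relative HSBP1L1 rose by 0.93 (adjusted p = 0.0111) and the ubiquitin gene UBB by 0.67 (adjusted p = 0.0422). With the correction these were at 0.02 and -0.12 and did not pass (adjusted p = 0.976 and 0.806). With the correction 2 genes of the list passed, both higher, beside 3.63% of the coding genes, and its median was 0.02. On the TPM scale 0 of the list were called higher and 2 lower (0 and 3 at an unadjusted edgeR p under 0.05), beside 3.96% and 37.7% of all tested genes. The median of the list was then -0.12, and HSBP1 did not pass (0.34, adjusted p = 0.179).

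DNAJ proteins fall into types A, B and C, and the set holds 4, 7 and 25 of them. Of these 36, 8 were called higher and 6 lower, beside 16.5% and 15.7% of all tested genes. Their median log2 fold change was 0.12. On the TPM scale edgeR called 0 higher and 13 lower (1 and 15 at an unadjusted p under 0.05), beside 3.96% and 37.7% of all tested genes. DNAJA1, a general HSP70 partner, was the most abundant, at 80.2 and 84.9 FPKM in the controls and 120.2 and 101 FPKM in the overexpression libraries. The groups were separate, and it rose by 0.63 ± 0.16 (1.54-fold, edgeR adjusted p = 0.0207). With the length correction it was at 0.49 and did not pass (adjusted p = 0.0982), and with lengths over all coding transcripts it was at 0.73 and did (adjusted p = 0.0152). DNAJA2, its close relative, was at 26.6 and 22.7 FPKM against 27.9 and 20.1 FPKM, which overlap (0.16 ± 0.19, adjusted p = 0.533).

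Of the 7 type B genes, 0 were called higher and 1 lower by edgeR and by DESeq2, the same as at an unadjusted p under 0.05. Of all tested genes, edgeR called 16.5% higher and 15.7% lower. DNAJB1, the heat-inducible HSP40, was at 50.2 and 57.4 FPKM in the controls and at 50.9 and 48.2 FPKM in the overexpression libraries. The groups overlapped, and the log2 difference was 0.09 ± 0.16 (edgeR adjusted p = 0.701), with the opposite sign on the TPM scale (-0.41). DNAJB4, the next most abundant, was at 14.4 and 12.2 FPKM against 13.4 and 9.57 FPKM (-0.01 ± 0.20, adjusted p = 0.982). DNAJB14, anchored in the membrane of the endoplasmic reticulum, fell from 3.20 and 3.15 FPKM to 1.97 and 1.23 FPKM. Its log2 difference was -0.80 ± 0.22 (adjusted p = 0.0292), its mRNA is 6075 nt long, and with the length correction it was at -0.27 (adjusted p = 0.446).

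Type C moved in both directions, with 7 genes called higher and 5 lower of 25, beside 16.5% and 15.7% of all tested genes. DNAJC8, linked to RNA splicing, was the most abundant of the type and rose from 41.7 and 49.4 FPKM to 66.3 and 62.2 FPKM (0.70 ± 0.17, edgeR adjusted p = 0.0173; 0.27 with the length correction, adjusted p = 0.346). DNAJC5, the cysteine string protein of secretory vesicles, came next at 40.8 and 44.1 FPKM against 28.6 and 33.2 FPKM. Its groups did not overlap on the FPKM scale, but the log2 difference of -0.25 ± 0.18 did not pass (adjusted p = 0.292), and its corrected value was of the opposite sign, 0.21.

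DNAJC17 and DNAJC15 rose whether or not mRNA length was taken into account. DNAJC17, also linked to splicing (chr15:40765155-40807478, minus strand), was at 1.12 and 1.51 FPKM in the controls and at 2.23 and 2.55 FPKM in the overexpression libraries. It rose by 1.06 ± 0.25 (2.09-fold, edgeR adjusted p = 0.0155) and by 1.28 with the length correction (adjusted p = 0.0240). DNAJC15, a partner of the mitochondrial import motor (chr13:43023203-43114224, plus strand), was at 2.50 and 1.90 FPKM against 3.63 and 2.96 FPKM. It rose by 0.79 ± 0.21 (1.73-fold, adjusted p = 0.0244) and by 1.45 with the correction (adjusted p = 0.00975), which takes its annotated mRNA of 7853 nt at face value. Both are low in level, both groups are separate, and neither passed on the TPM scale (0.56 and 0.29, adjusted p = 0.0944 and 0.369). DNAJC17 shares 26.1% of its exonic bases with genes on the other strand, and since the strand setting of the counting is not given, its counts are uncertain.

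DNAJC19, another partner of the import motor, and DNAJC12, which helps to fold aromatic amino acid hydroxylases, were among the largest rises without the correction. DNAJC19 was at 7.99 and 8.26 FPKM in the controls and at 14.1 and 13.2 FPKM in the overexpression libraries, tight within each group. It rose by 0.95 ± 0.17 (edgeR adjusted p = 0.00668). DNAJC12 was near the minimum level, at 0.965 and 1.19 FPKM against 2.64 and 1.90 FPKM, and rose by 1.26 ± 0.32 (adjusted p = 0.0215). Their mRNAs are annotated at 1454 and 1201 nt, and with the length correction they were at 0.36 and 0.55 (adjusted p = 0.228 and 0.364). With lengths over all coding transcripts DNAJC19 was at 0.64 and passed (adjusted p = 0.0295). The other type C genes called higher were DNAJC30 (0.85, adjusted p = 0.0348) and DNAJC1 (0.65, adjusted p = 0.0439). With the correction they were at 0.75 and 0.40 and did not pass (adjusted p = 0.105 and 0.306).

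DNAJC14, DNAJC11 and DNAJC24 fell with and without the mRNA length correction. DNAJC14, which sits in the endoplasmic reticulum and is known for binding a dopamine receptor (chr12:55820960-55830824, minus strand), fell from 4.03 and 3.37 FPKM in the control libraries to 1.62 and 0.848 FPKM in the overexpression libraries. Its log2 difference was -1.39 ± 0.30 (2.63-fold lower, edgeR adjusted p = 0.0121), and -1.26 with the length correction (adjusted p = 0.0417). DNAJC11, linked to the inner membrane of mitochondria, was at 10.5 FPKM in both control libraries and at 5.29 and 4.33 FPKM in the overexpression libraries. It fell by 0.93 ± 0.18 on the log2 scale (adjusted p = 0.00815), or by 0.80 with the correction (adjusted p = 0.0296). DNAJC24, needed to make the diphthamide of elongation factor 2, was at 6.50 and 4.83 FPKM against 3.35 and 2.58 FPKM. It fell by 0.73 ± 0.21 (adjusted p = 0.0331), or by 1.04 with the correction (adjusted p = 0.0313). Corrected on exonic length instead, DNAJC24 was at -0.41 and did not pass (adjusted p = 0.190). In all 3 genes the highest overexpression library lay below the lowest control, as was so for all 8 members called lower. DNAJC11 shares 27.9% of its exonic bases with THAP3 on the other strand. DNAJC14 shares 34.9% with genes on the other strand and 23.2% with AC023055.1 on its own strand, so the counts of both are uncertain.

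Of the other falls, DNAJC13, which works with HSP70 on endosomes, went from 13.0 and 13.1 FPKM to 7.17 and 4.10 FPKM (-1.02 ± 0.23, edgeR adjusted p = 0.0151). DNAJC16 went from 5.30 and 5.02 FPKM to 3.03 and 2.15 FPKM (-0.80 ± 0.20, adjusted p = 0.0193). Their mRNAs are 7730 and 6069 nt long, and neither passed with the length correction (-0.38 and -0.27, adjusted p = 0.283 and 0.394).

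**Figure D4:**
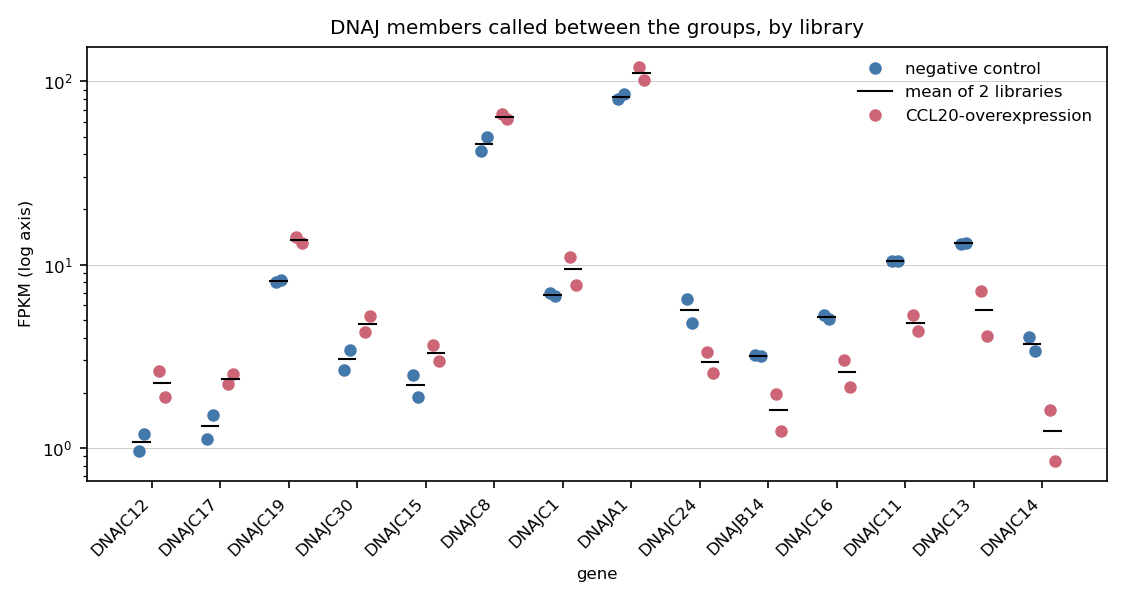
FPKM (vertical log axis) of the 14 DNAJ genes called between the groups, in each library; dots are libraries, 2 per group, and short lines are group means. The 8 genes on the left were called higher and the 6 on the right lower. No gene has overlapping groups, but the genes were picked by the test, so this is no further support.

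All 8 subunits of the CCT ring had a positive log2 difference with TMM scaling, between 0.29 and 0.66 with a median of 0.39. Of the 8, 3 passed the test, beside 16.5% of all tested genes called higher. On the TPM scale 5 of the subunits were negative. The subunits sit in fixed places in a ring of 8 that folds actin and tubulin, and each is made from its own gene. CCT7 was at 164 and 176 FPKM in the controls and at 221 and 243 FPKM in the overexpression libraries (0.66 ± 0.16, 1.58-fold, edgeR adjusted p = 0.0194). CCT8 was at 108 and 116 FPKM against 166 and 132 FPKM (0.61 ± 0.16, adjusted p = 0.0250). CCT3 was at 136 FPKM in both controls and at 167 and 176 FPKM with overexpression (0.55 ± 0.16, adjusted p = 0.0312). None of these groups overlapped, as was so for all 15 members called higher.

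The other 5 subunits did not pass. CCT6A, the highest by mean FPKM, was at 259.8 and 245 FPKM against 310.3 and 243 FPKM (0.33 ± 0.16, edgeR adjusted p = 0.145). CCT5 was at 127 FPKM in both controls and at 155 and 131 FPKM with overexpression (0.37 ± 0.15, adjusted p = 0.0918). TCP1 was at 119 and 121 FPKM against 157 and 121 FPKM (0.41 ± 0.16, adjusted p = 0.0863). In each of these 3 overexpression 1 was clearly the highest library and overexpression 2 close to the controls. CCT4, at 118 and 112 FPKM against 144 and 102 FPKM, gave 0.29 ± 0.18 (adjusted p = 0.232), and CCT2, at 81.0 and 87.6 FPKM against 96.6 and 88.8 FPKM, gave 0.34 ± 0.15 (adjusted p = 0.119). On FPKM as deposited both overexpression libraries lay above both controls for 6 subunits, CCT4 and CCT6A being the exceptions. On that scale 3145 of the 12168 tested genes lay above in this way and 5702 below. With TMM scaling all 8 did, and of all members 31 lay above and 15 below. Of the 12168 tested genes 4383 lay above and 4330 below on that scale, together 71.6%. Groups that lie apart are therefore common here, in either direction.

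With the length correction the subunits lay between 0.05 and 0.58, all positive, and 1 passed, beside 3.63% of the coding genes called higher. CCT3, CCT7 and CCT8 were at 0.31, 0.30 and 0.31 and did not (adjusted p = 0.224, 0.237 and 0.295). The 1 that passed was CCT5, at 0.58 (edgeR adjusted p = 0.0453), which has the longest annotated mRNA of the ring, 3675 nt, and shares 30.1% of its exonic bases with an antisense gene. With lengths over all coding transcripts CCT5 was at 0.32 (adjusted p = 0.149) and CCT6A alone passed, at 0.51 (adjusted p = 0.0453). The negative values on the TPM scale were those of TCP1, CCT2, CCT4, CCT5 and CCT6A, and 0 subunits passed there in either direction (0 also at an unadjusted edgeR p under 0.05), so the direction of those 5 depends on the scaling. The proportions within the ring are free of that choice, but they depend on the gene length used in FPKM. That length is the exonic total, 4322 nt for CCT2 and 2830 nt for CCT4, whose annotated mRNAs are 2041 and 2520 nt. By FPKM, CCT2 was the lowest subunit in every library. The highest by FPKM was CCT6A in 3 libraries and CCT7 in overexpression 2. It stood 3.21 and 2.79 times above the lowest in the controls and 3.21 and 2.74 times in the overexpression libraries. A ranking on mRNA length was not made. The level of CCT7 per level of CCT4 was 1.39 and 1.56 in the controls and 1.53 and 2.37 in the overexpression libraries, which overlap.

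**Figure D5:**
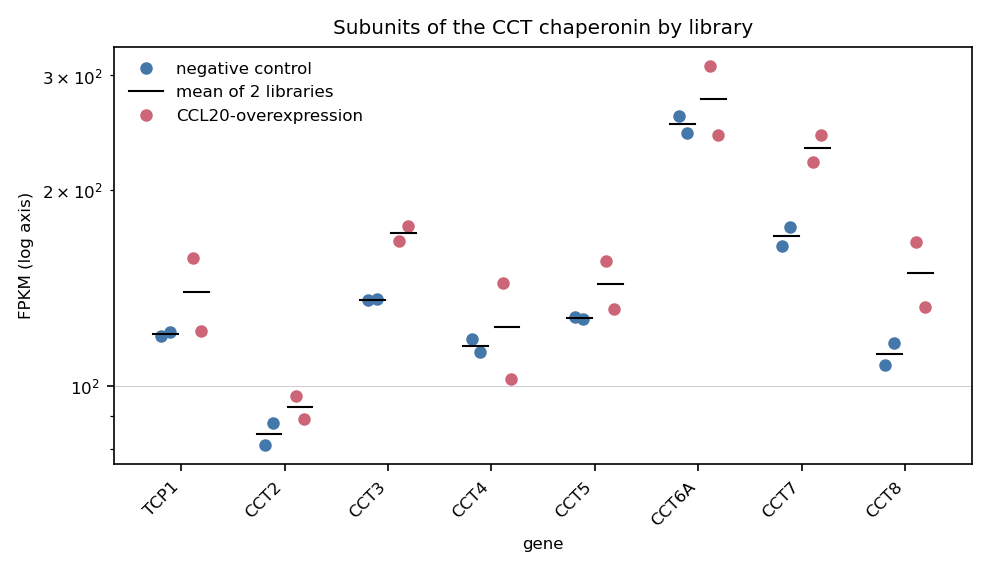
FPKM (vertical log axis) of the 8 CCT subunits in each library; dots are libraries, 2 per group, and short lines are group means. CCT3, CCT7 and CCT8 separate between the groups, whereas for CCT4 and CCT6A overexpression 2 lies below both controls.

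Prefoldin hands unfolded actin and tubulin to CCT, and its subunits and related cofactors were mostly higher as well. Of 12 tested, 10 were called higher and 0 lower by edgeR and by DESeq2 (11 and 0 at an unadjusted p under 0.05 by either), with a median log2 fold change of 0.91. Of all tested genes, edgeR called 16.5% higher and 15.7% lower. UXT, a prefoldin-like subunit, rose from 10.4 and 10.8 FPKM to 25.2 and 25.6 FPKM (1.46 ± 0.19, adjusted p = 0.00433). PFDN6 rose from 12.7 and 12.6 FPKM to 23.6 and 30.5 FPKM (1.31 ± 0.20, adjusted p = 0.00495), and PFDN5 from 30.4 and 27.9 FPKM to 58.4 FPKM in both (1.21 ± 0.16, adjusted p = 0.00433). Their median mRNA length is 1407 nt. With the length correction edgeR called 0 of the 12 in either direction (4 higher and 0 lower at an unadjusted p under 0.05), beside 3.63% and 3.19% of the coding genes. The median was 0.28, against 0.03 over the coding genes. UXT, PFDN6 and PFDN5 were then at 0.47, 0.33 and 0.26 (adjusted p = 0.162, 0.261 and 0.337). With lengths over all coding transcripts 6 were called higher and 0 lower (9 and 1 unadjusted), beside 11% and 10.5% of the coding genes. On the TPM scale 4 were called higher and 1 lower, beside 3.96% and 37.7% of all tested genes, with a median of 0.41.

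The co-chaperones that steer HSP90 were called higher in 6 of 19 and lower in 1, beside 16.5% and 15.7% of all tested genes. Their median was 0.39 on the log2 scale. This direction depends on the scaling, since on the TPM scale 1 was called higher and 2 lower and the median was -0.10. Of all tested genes 3.96% and 37.7% were called on that scale. NUDC, a helper of the dynein motor, rose from 66.5 and 72.2 FPKM to 109.6 and 147 FPKM (1.10 ± 0.21, edgeR adjusted p = 0.00779). CACYBP, the calcyclin-binding protein, rose from 34.5 and 33.7 FPKM to 52.9 and 44.4 FPKM (0.71 ± 0.16, adjusted p = 0.0139). With the length correction NUDC was at 0.68 (adjusted p = 0.0584), and CACYBP was at 0.71 and passed (adjusted p = 0.0322). CACYBP was 1 of 2 of the list to do so, both higher, beside 3.63% of the coding genes. CACYBP did not pass with lengths over all coding transcripts (0.39, adjusted p = 0.119) or on the TPM scale (0.22, adjusted p = 0.390).

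Exchange factors of HSP70 outside the members were called higher in 4 of 11 and lower in 1, beside 16.5% and 15.7% of all tested genes. Their median was -0.01. On the TPM scale 1 was called higher and 3 lower, beside 3.96% and 37.7% of all tested genes, with a median of -0.51. The genes with the strongest tests serve the HSP70 of the endoplasmic reticulum, and they went opposite ways. SIL1 rose from 5.54 and 6.66 FPKM to 10.7 and 16.9 FPKM (1.40 ± 0.27, edgeR adjusted p = 0.00818), and HYOU1 fell from 11.8 and 12.0 FPKM to 4.61 and 3.94 FPKM (-1.27 ± 0.16, adjusted p = 0.00433). Both also passed with the length correction, at 1.03 (adjusted p = 0.0411) and -0.92 (adjusted p = 0.0157). HSPBP1, an exchange factor of the cytosol, rose from 30.5 and 34.7 FPKM to 48.3 and 72.4 FPKM (1.10 ± 0.24, adjusted p = 0.0128), and was at 0.56 with the correction (adjusted p = 0.144).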

How the data were processed

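Polyadenylated RNA of 4 CAL27 libraries was sequenced, 2 per group, as the labels number them. The submitters' processing notes name HISAT2 (no version), HTSeq 0.13.5 and GRCh38; no source used here gives the annotation or strand setting. The deposited counts are unnormalized whole reads per gene. The deposited FPKM values were made by the authors from those counts, the gene length and the library total. All 29437 identifiers matched GENCODE 29, used for positions and mRNA length (median of the principal transcripts).

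The test was edgeR 4.0.16 (R 4.3.3, glmQLFit, glmQLFTest, TMM, two-sided, Benjamini-Hochberg) on 12168 genes. In a check on simulated counts, 71% of 2-fold changes were recovered. The simulation gave both groups the same dispersion, so it does not cover the wider spread of the overexpression pair. The SE is the log2 fold change divided by the square root of F. Alternatives used RLE factors, the TPM scale, DESeq2 1.42.0, limma 3.58.1 with pseudocounts of 1 and 0.1, other filters, a replicate block, each library left out, and length corrections. The correction subtracts, per library, a natural spline (5 degrees of freedom) of log2 CPM deviation on log2 mRNA length over coding genes.

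TCP1, which the rule lists by name, was kept although it ends in P and a digit. Named members are the 2 highest of each role group, those past the threshold with the length correction, the 5 largest rises and falls, 12 heat shock genes, all CCT subunits and up to 3 genes per list, of which 1 is not reported here; HSPA4L, HSPA12A, HSPA14, HSPB8, DNAJC1, DNAJC19, DNAJC30 and the named cell type markers were added after their values were seen. Members and lists were chosen with earlier results of these data known. Figures were drawn with matplotlib 3.10.9.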

Additional observations from a re-analysis of the deposited data

How the results depend on the processing

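RLE factors and DESeq2 gave the same 15 members higher and 8 lower, and edgeR without a filter or with filterByExpr 17 and 7, and 15 and 7. limma gave 6 higher with either pseudocount and 9 lower, the TPM scale 2 and 16, the mRNA length correction 3 and 3, the exonic length correction 10 and 2, and the length of all coding transcripts, added after seeing the data, 10 and 3. Leaving out 1 library gave from 1 to 29 higher and from 0 to 14 lower; a group left with 1 library is assumed to vary like the other group. Replicate numbers are shared between groups. Over the 12168 tested genes, the deviations of control 1 and overexpression 1 from their group means had a correlation of 0.265. The libraries numbered 2 mirror these and add nothing. The labels name no batch, so the main test treats them as numbers only, and whether they mark a batch was not tested. A replicate block gave 18 higher and 11 lower, and a replicate block with the mRNA length correction 11 and 4. Shares over all genes are not given here for RLE factors, DESeq2, the other filters, limma, the exonic length correction or the replicate blocks. The member counts of those settings therefore cannot be set against genes at large.

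Of 49 named genes, none changed sign with RLE factors, DESeq2 or the replicate block. The log2 difference changed sign on the TPM scale for CCT4 (-0.194), CCT6A (-0.161), CCT2 (-0.159), CCT5 (-0.122), TCP1 (-0.0793), DNAJA2 (-0.329), DNAJB1 (-0.415), HSF1 (-0.311), HSPA4 (-0.436), HSPA8 (-0.164), HSP90AB1 (-0.335), HSP90AA1 (-0.233), HSPA9 (-0.339) and HSPD1 (-0.112). With the exonic length correction it did so for CCT4 (-0.068), DNAJB1 (-0.139), HSPH1 (0.19) and HSP90AB1 (-0.184). With the mRNA length correction the genes were DNAJB4 (0.0476), DNAJB1 (-0.1), DNAJC5 (0.206), HSF1 (-0.0399), HSPH1 (0.26) and UBB (-0.118). The block with that correction gave DNAJB4 (0.0384), DNAJB1 (-0.0978), DNAJC5 (0.191), HSF1 (-0.053), HSPH1 (0.247) and UBB (-0.145). Lengths of all coding transcripts gave DNAJB1 (-0.179), DNAJC27 (0.089), DNAJC5 (0.322), HSPH1 (0.186), HSPA1B (0.104) and HSPA9 (-0.102). filterByExpr gave DNAJB4 (0.0507) and HSPA1B (0.0134), and no filter DNAJB4 (0.0457) and HSPA1B (0.00686). limma with a pseudocount of 0.1 gave DNAJA2 (-0.0525), DNAJB1 (-0.115), HSF1 (-0.0181), HSPA4 (-0.163), HSP90AB1 (-0.0452) and HSPA9 (-0.0542), and with 1 DNAJA2 (-0.0501), DNAJB1 (-0.113), HSF1 (-0.0163), HSPA4 (-0.16), HSP90AB1 (-0.0452) and HSPA9 (-0.0533). With 1 library left out the range crossed 0 for DNAJA2 (-0.0424 to 0.341), DNAJB4 (-0.214 to 0.18), DNAJB1 (-0.0111 to 0.191), HSF1 (-0.0944 to 0.454), HSPH1 (-0.468 to 0.0688), HSPA1B (-0.112 to 0.0303) and HSPA4 (-0.133 to 0.216). The causes were not tested.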
